A study of Mus musculus with 8 samples.

Results

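The genes described here release the precursor of prostaglandins, make the prostaglandins, carry them across the membrane, break them down and sense them. They were chosen by symbol: Ptgs1, Ptgs2, Ptges, Ptgis, Hpgd, Pla2g4a, Ptger1, Ptger2, Ptger4 and Slco2a1. A gene was taken from the array where the platform annotation of a probe set gave its symbol and no other, and the probe set with the highest mean would have stood for a gene with several. Of the 10 genes, 9 were found in this way among the 19938 genes with a symbol, each through 1 probe set, and Ptgs1, the constitutive cyclooxygenase, is not analysed here. The probe sets are 10350516 for Ptgs2, 10358434 for Pla2g4a, 10481518 for Ptges, 10489878 for Ptgis, 10573210 for Ptger1, 10414271 for Ptger2, 10427461 for Ptger4, 10588263 for Slco2a1 and 10571840 for Hpgd.

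Prostaglandins are short-lived lipid mediators made from arachidonic acid. The cytosolic phospholipase A2 encoded by Pla2g4a frees arachidonic acid from membranes, the cyclooxygenases encoded by Ptgs1 and Ptgs2 turn it into prostaglandin H2, and terminal synthases such as those of Ptges and Ptgis turn that into prostaglandin E2 or prostacyclin. The transporter encoded by Slco2a1 takes prostaglandins up, the dehydrogenase encoded by Hpgd inactivates them inside the cell, and Ptger1, Ptger2 and Ptger4 encode receptors for prostaglandin E2. Ptgs2 is an inducible gene that is often expressed in carcinomas, and in bone prostaglandin E2 made by osteoblastic cells acts on both bone formation and bone resorption.

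The data are 8 Affymetrix MoGene ST arrays of mouse RNA, with 4 groups of 2. MBA-15 is a stromal line of the pre-osteoblastic kind, and the DA3 line comes from a mammary adenocarcinoma. Each was either co-cultured, with DA3 cells seeded on a layer of MBA-15 cells, or kept in mono-culture as the control. All groups were grown in the same medium with fetal calf serum, and no agent or genetic change is named in the labels. The co-cultured cells were parted with magnetic particles and an antibody against EpCAM (CD326), a surface protein of epithelial cells, into a bound DA3 fraction and an unbound MBA-15 fraction, so a fraction can hold cells of the other line. The descriptions of the arrays labelled alone name a fraction of a mix, negative for MBA-15 and positive for DA3, and the labels do not say what was mixed. The sample descriptions name 24 h, but the growth protocol names a second, longer time as well. Levels are log2 values after RMA (robust multi-array average), so a difference of 1 is a factor of 2, read against the rest of the array. The series calls the arrays of a group duplicates under 1 culture date, and no label names separate cultures, so p-values here rest on a spread between samples that may be technical only. An assay number in the descriptions, which the labels do not explain, puts 3 arrays in assay 4 (all groups except DA3 co-culture), 4 in assay 3 (1 of each group) and 1, of DA3 co-culture, in assay 5.

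The arrays labelled MBA-15 alone went against their label. The 11 measured epithelial markers had array means of 8.48 and 8.94 there. In MBA-15 co-culture they were 5.34 and 5.20, and 9.11 to 9.66 on the 4 DA3 arrays. Epcam itself was at 8.45 and 9.25 on the labelled arrays, at 5.58 and 5.19 in MBA-15 co-culture and at 9.30 to 9.57 on the DA3 arrays. The 13 measured stromal markers had array means of 8.03 to 8.57 on the 4 MBA-15 arrays, 5.55 and 5.61 in DA3 alone, and 6.60 and 6.13 in the DA3 fraction of the co-culture. Thy1 and Postn were dim on every array. Twist1 and Sparc exceeded the dim reference on every array of both lines, with means of 6.42 and 11.29 in MBA-15 co-culture. In DA3 alone their means were 6.60 and 10.39. Of 7 leukocyte markers only Cd68 was above the dim reference, and of 4 endothelial markers 0 were. The dim reference is the 95th percentile of 1027 olfactory receptor genes, a family seldom expressed in cell lines, on the same array. It lay between 4.26 and 4.68 and was highest on the DA3 co-culture arrays (4.55 and 4.68). On both arrays of a group, 47.5 to 53.1% of all genes exceeded it. A value under it is called dim here, because the table used holds no detection call. In bulk samples, fewer cells of a type and less RNA per cell cannot be told apart.

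The promoter windows of 3 of the 4 members whose group means spanned over 2 log2 units are shown because these genes had different patterns: Ptgs2 was far above the dim reference in both lines, Ptges only on the MBA-15 arrays, and Slco2a1 had its highest means in DA3. Each window runs from 250 bases before to 50 bases after the gene's start in RefSeq, on the GRCm38.p6 build, and is written in the direction of transcription. Windows were found for 8 of the 10 genes. Ptgs2 lies on the plus strand at chr1:150099781-150100080, Ptges on the minus strand at chr2:30903248-30903547 and Slco2a1 on the plus strand at chr9:103008237-103008536. Capitals mark matches, on either strand, to the core promoter element TATAAA, to CGTCA from the cAMP response element, to the E-box CACGTG, to the C/EBP palindrome TTGCGCAA, to the GC box GGGCGG, to the box CCAAT and to the AP-1 and NF-kB motifs.
Ptgs2: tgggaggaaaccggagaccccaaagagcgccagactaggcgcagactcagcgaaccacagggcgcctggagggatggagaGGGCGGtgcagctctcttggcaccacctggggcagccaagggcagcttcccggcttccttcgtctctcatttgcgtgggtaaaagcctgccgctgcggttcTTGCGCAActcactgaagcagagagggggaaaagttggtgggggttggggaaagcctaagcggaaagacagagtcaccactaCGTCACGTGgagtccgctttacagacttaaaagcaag
Ptges: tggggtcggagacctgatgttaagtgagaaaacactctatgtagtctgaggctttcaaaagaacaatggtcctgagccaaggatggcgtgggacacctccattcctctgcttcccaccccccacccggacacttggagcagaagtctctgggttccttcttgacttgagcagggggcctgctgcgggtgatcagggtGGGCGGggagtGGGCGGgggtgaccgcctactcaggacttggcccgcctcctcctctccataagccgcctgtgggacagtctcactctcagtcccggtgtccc
Slco2a1: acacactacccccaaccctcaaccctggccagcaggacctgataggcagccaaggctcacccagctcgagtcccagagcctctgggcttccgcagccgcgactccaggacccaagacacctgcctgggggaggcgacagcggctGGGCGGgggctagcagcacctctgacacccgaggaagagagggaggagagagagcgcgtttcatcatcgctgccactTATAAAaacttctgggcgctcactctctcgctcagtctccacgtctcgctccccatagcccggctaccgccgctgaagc
In the Ptgs2 window TTGCGCAA lies at -69 to -62 from the start, a match that 0.183% of all 32851 such windows hold. CGTCA at 14 to 18 and CACGTG at 17 to 22 after the start overlap, and 20.8% and 7.15% of windows hold these letters. The Ptges window holds GGGCGG at -53 to -48 and at -42 to -37, with no TATAAA, and 35.7% of windows hold GGGCGG. The Slco2a1 window holds TATAAA at -29 to -24, as 13.6% of windows do at some position, and GGGCGG at -106 to -101. The AP-1 motif, CCAAT and the NF-kB motif, which 7.81%, 37.4% and 1.63% of windows hold, were not found in these 3. A match describes the letters and is no evidence of a bound factor, and the RefSeq start need not be the one used in these cells.

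The members differed in level. Of the 9, Ptgs2, Pla2g4a and Slco2a1 were above the dim reference on all 8 arrays, Ptges on the 4 MBA-15 arrays alone, and Ptger4 on all arrays but those of DA3 co-culture. Ptgis, Ptger1, Ptger2 and Hpgd were dim on all 8 arrays, and no fold is given for them. The plot of the members on each array shows these levels.

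**Figure D1:**
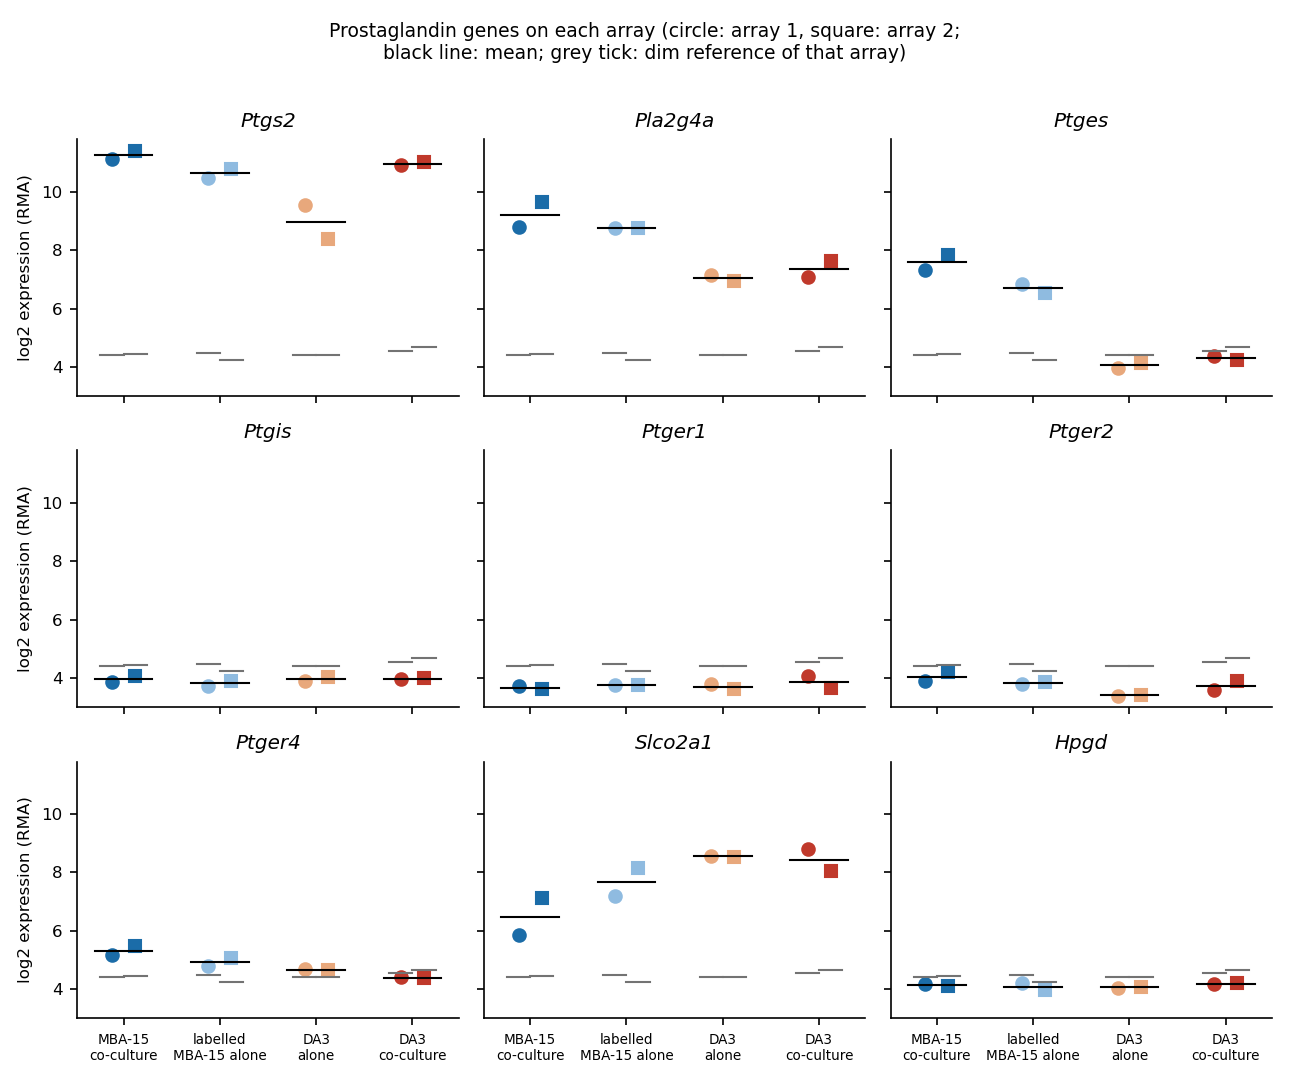
Log2 expression (y axis) of the 9 measured members in the 4 groups (x axis), with 1 symbol per array, a black line at the group mean and a grey tick at the dim reference of each array. Ptgs2 lies between 8.40 and 11.38 on every array, Ptges is above its grey ticks on the MBA-15 arrays alone, and Ptgis, Ptger1, Ptger2 and Hpgd lie under them throughout.

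The first question was which line holds these transcripts, answered between the 2 fractions of the co-culture. Ptges, Pla2g4a and Ptger4 were lower in DA3 co-culture than in MBA-15 co-culture, and 0 members were higher, at an adjusted p under 0.05 in limma with Benjamini-Hochberg adjustment over all genes. So 3 of 9 were called lower, where 8.28% of all genes were called lower and 4.48% higher, 12.8% in all. Of the 9, 4 had an unadjusted p under 0.05 in limma, as did 27.6% of all genes. The arrays did not overlap for 4 members that were lower and 2 that were higher in DA3, as for 23.3% and 31.9% of all genes. Of these, Hpgd was dim in both groups, so its order is not read. The median difference over the 9 members was -0.29, against 0.065 over all genes. That median is the value of Ptgs2, which was not called, and Ptgis, Ptger1, Ptger2 and Hpgd were dim throughout. Epcam, the gene of the separation, was 3.95 ± 0.27 (SE) higher in the DA3 fraction.

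Ptges encodes the microsomal prostaglandin E synthase that works downstream of the inducible cyclooxygenase, and it had the widest gap between the lines. Its level was 7.34 and 7.83 in MBA-15 co-culture, 6.84 and 6.55 under the label MBA-15 alone, 3.99 and 4.13 in DA3 alone, and 4.40 and 4.26 in the DA3 fraction of the co-culture. No DA3 array reached the dim reference and every MBA-15 array lay above it. The difference between the co-culture fractions was -3.25 ± 0.20 (SE, limma adjusted p = 0.000471), with means of 4.33 ± 0.10 and 7.58 ± 0.35 (SD, n = 2). Since the DA3 side was dim, the level in MBA-15 co-culture was at least 7.82-fold higher, measured against the higher of the dim reference and the probe's own value on each DA3 array. Between DA3 alone and the arrays labelled MBA-15 alone the difference was -2.63 ± 0.20 (limma adjusted p = 0.00159), at least 4.83-fold, although the labelled arrays carried the epithelial marker levels given above.

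Pla2g4a, the gene of the phospholipase that starts the pathway, was expressed in both lines but more in MBA-15. Its level was 8.79 and 9.64 in MBA-15 co-culture, 8.77 and 8.74 under the label MBA-15 alone, 7.14 and 6.93 in DA3 alone, and 7.07 and 7.64 in the DA3 fraction of the co-culture. The MBA-15 and DA3 arrays did not overlap. The difference between the co-culture fractions was -1.86 ± 0.31 (limma adjusted p = 0.0114), or 3.63-fold. Between the arrays labelled alone it was -1.72 ± 0.31 (limma adjusted p = 0.0418), or 3.29-fold, and this call was lost with the assay number as a block (limma adjusted p = 0.0535), with array medians set equal (0.0605) and without any 1 of the 4 arrays compared (0.129 to 0.28). The co-culture call was lost when only these 2 groups entered the fit (limma adjusted p = 0.0734).

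Ptger4, the gene of the EP4 receptor that raises cAMP, was low everywhere. Its level was 5.16 and 5.48 in MBA-15 co-culture, 4.81 and 5.08 under the label MBA-15 alone, 4.68 and 4.67 in DA3 alone, and 4.43 and 4.37 in the DA3 fraction of the co-culture. The dim reference was 4.55 and 4.68 on the DA3 co-culture arrays and 4.42 on each DA3 alone array. Ptger4 on DA3 co-culture array 1 lay just above the latter. The order of the 4 groups held without overlap, but no difference between neighbours in that order passed limma. The end groups differed by -0.92 ± 0.16 (DA3 minus MBA-15 co-culture, limma adjusted p = 0.0139), which is at least 1.63-fold since DA3 co-culture was dim. That call was lost without MBA-15 co-culture array 2 (-0.75, limma adjusted p = 0.0597), without DA3 co-culture array 2 (-0.89, 0.0546) and with only these 2 groups in the fit (0.0704).

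Slco2a1, the gene of the prostaglandin uptake transporter, was the 1 bright member whose means were higher in DA3. Its level was 5.84 and 7.12 in MBA-15 co-culture, 7.18 and 8.15 under the label MBA-15 alone, 8.54 and 8.54 in DA3 alone, and 8.79 and 8.05 in the DA3 fraction of the co-culture. The MBA-15 co-culture arrays lay apart from each other and below all others, and the labelled array 2 lay above a DA3 co-culture array. The difference between the co-culture fractions was 1.94 ± 0.50 and missed the threshold (limma adjusted p = 0.0518). It passed in 5 of 17 other fits: with either other normalization, among genes above the dim reference, with a variance trend and without MBA-15 co-culture array 2 (2.57, limma adjusted p = 0.0302). The limma adjusted p ran from 0.015 to 0.162 over all 17. Between the arrays labelled alone the difference was 0.88 ± 0.50 (limma adjusted p = 0.618).

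Ptgs2, the gene of the inducible cyclooxygenase, gave no call in either comparison of the lines tested here. Its means ran from 11.25 ± 0.19 in MBA-15 co-culture over 10.96 ± 0.06 in DA3 co-culture and 10.62 ± 0.21 under the label MBA-15 alone to 8.98 ± 0.82 in DA3 alone (SD, n = 2). The ends of that range were 2.27 apart, and MBA-15 co-culture against DA3 alone was not tested. The co-culture fractions differed by -0.29 ± 0.36 (DA3 minus MBA-15, limma adjusted p = 0.641), with a 95% interval from -1.14 to 0.57, so a difference within those bounds is not shown to be absent. Between DA3 alone and the arrays labelled MBA-15 alone the difference was -1.64 ± 0.36 (limma adjusted p = 0.0809). This one passed among genes above the dim reference (limma adjusted p = 0.0339), with a variance trend (0.0102) and without DA3 alone array 1 (-2.22, 0.0278), while without DA3 alone array 2 it was -1.06 (0.17). Within assay 3 it was -2.37 and within assay 4 it was -0.91. Between the arrays labelled alone, 2 of 9 members were called lower and 0 higher, where 2.7% and 0.186% of all genes were, 2.89% in all. An unadjusted p under 0.05 was found in limma for 4 members and 11.9% of all genes. The arrays did not overlap for 5 members that were lower and 2 that were higher in DA3, as for 18.4% and 29.5% of all genes. Of these, Ptgis and Ptger2 were dim in both groups, so their order is not read.

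**Figure D2:**
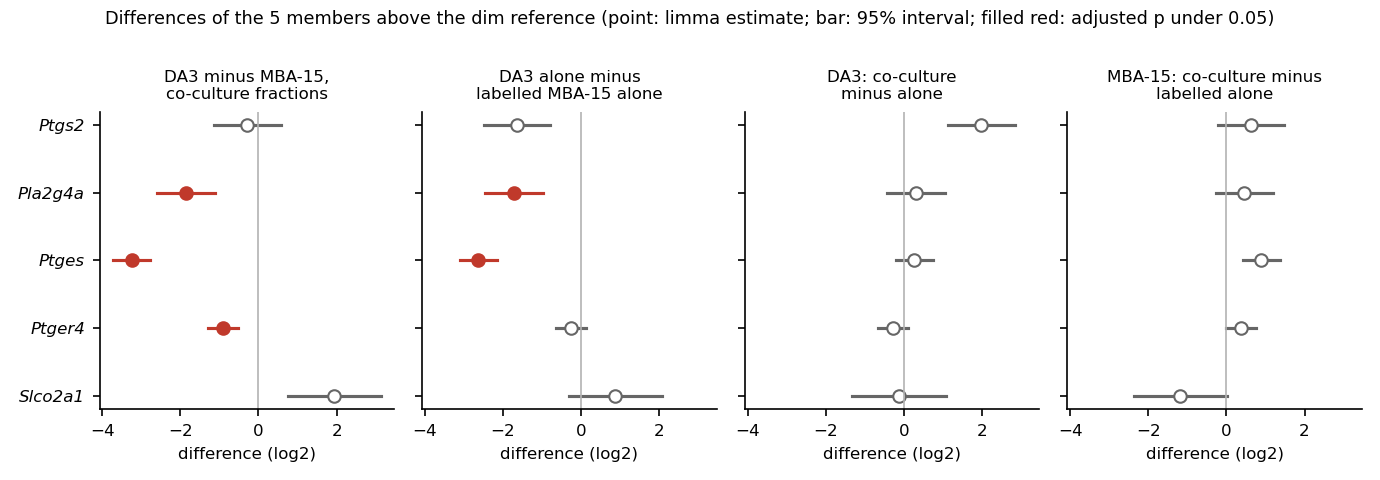
Difference in log2 level (x axis, points with 95% intervals from limma) of the 5 members above the dim reference on at least 2 arrays, in the 4 comparisons of groups, with filled red points for an adjusted p under 0.05. Red points are Pla2g4a and Ptges in both comparisons of the lines and Ptger4 between the co-culture fractions, and none stands in the comparisons of co-culture with alone.

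The second question was what co-culture changes in the carcinoma line. Ptgs2 had the largest value among the members, and it did not pass the test over all genes. Its level was 9.56 and 8.40 in DA3 alone, and 10.92 and 11.00 in the DA3 fraction of the co-culture. The lowest and the highest difference between single arrays of the 2 groups were 1.36 and 2.60, so the arrays did not overlap, as was so in this direction for 31.4% of all genes. The mean difference was 1.98 ± 0.36 (SE), or 3.95-fold, with a 95% interval from 1.13 to 2.84 (limma, unadjusted p = 0.00104, adjusted p = 0.139). Of the 2 control arrays, array 1 belongs to assay 4 and array 2 to assay 3, and within assay 3 the difference was 2.52. It was 2.56 without DA3 alone array 1 and 1.40 without array 2 (limma adjusted p = 0.218 and 0.534). With a trend of the variance on the mean level, limma gave an adjusted p of 0.0173, and over 17 other fits the adjusted p ran from 0.0173 to 0.534.

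Stromal marker genes on the DA3 co-culture arrays were read beside this value, and which cells held their transcripts was not tested. Positions were read on a linear scale from the mean of DA3 alone to the mean of MBA-15 co-culture, for genes over 2 log2 units apart between them. There, Ptgs2 stood at 74.2% and 80.3% of the way to MBA-15 co-culture on the 2 DA3 co-culture arrays. The 9 stromal markers that could be placed had medians of 8.5% and 5.6%, with a range of 5.0 to 38.5% on array 1 and 0.3 to 20.6% on array 2. Thy1, Postn, Twist1 and Sparc were less than 2 log2 units apart and could not be placed. Ptges stood at 2.5% and 1.4% and Pla2g4a at 0.6% and 14.7%. The stromal array means were 6.60 and 6.13 there, against 5.55 and 5.61 in DA3 alone, and the part of stromal RNA in the Ptgs2 value was not tested.

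The other members gave small values in DA3. The difference was 0.32 ± 0.31 for Pla2g4a (limma adjusted p = 0.617), -0.28 ± 0.16 for Ptger4 (0.447) and -0.12 ± 0.50 for Slco2a1 (0.908), and Ptges was dim in both groups. Pla2g4a turned to -0.07 with the assay number as a block, and Slco2a1 to 0.08 after a new quantile normalization and to 0.25 without DA3 co-culture array 2. In all, 0 of 9 members were called in limma, where 0.0401% of all genes were (0.01% higher and 0.0301% lower), and 1 member, Ptgs2, had an unadjusted p under 0.05, as did 14.9% of all genes. The arrays did not overlap for 4 members that were higher in co-culture and 1 that was lower, as for 31.4% and 22.4% of all genes. Of these, Ptges, Hpgd and Ptger2 were dim in both groups, so their order is not read, and Ptger4 was dim in co-culture.

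The third question was what co-culture changes in the stromal line, set against the arrays labelled MBA-15 alone. Here the epithelial markers moved with the groups, all 11 of them called lower in co-culture, with a median difference of -3.46. Ptges differed by 0.89 ± 0.20 (co-culture minus labelled alone, 1.85-fold, limma unadjusted p = 0.00334, adjusted p = 0.152), 1.28 within assay 3 and 0.50 within assay 4. Ptgs2 differed by 0.63 ± 0.36 (0.62 within assay 3 and 0.64 within assay 4), Pla2g4a by 0.46 ± 0.31 (0.90 and 0.02) and Ptger4 by 0.38 ± 0.16 (0.41 and 0.35), with limma adjusted p of 0.676, 0.72 and 0.518. Slco2a1 differed by -1.19 ± 0.50 (limma adjusted p = 0.514), or -1.03 and -1.34 within the assays. Thus 0 of 9 members were called in limma, where 0.848% of all genes were (0.0752% higher and 0.772% lower), and 1 had an unadjusted p under 0.05, as did 9.8% of all genes. The arrays did not overlap for 5 members that were higher in co-culture and 2 that were lower, as for 22.3% and 16.1% of all genes. Of these, Ptger1 and Ptger2 were dim in both groups, so their order is not read.

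Positions on the labelled arrays were read in the same way. On the linear scale from MBA-15 co-culture (0%) to DA3 alone (100%), the 11 epithelial markers stood at medians of 44.4% and 60.3% on the 2 labelled arrays, with ranges of 24.6 to 57.8% and 47.1 to 82.0%. Ptges stood at 44.1% and 56.0%, Pla2g4a at 34.1% and 35.8%, Ptgs2 at 52.6% and 35.6% and Slco2a1 at 19.7% and 68.9%. The 9 stromal markers stood at medians of 26.5% and 30.8%, with ranges of -3.7 to 62.7% and 11.5 to 61.3%. The positions of Ptges lie inside the ranges of both lists. The part of the epithelial RNA in these differences was not tested.

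**Figure D3:**
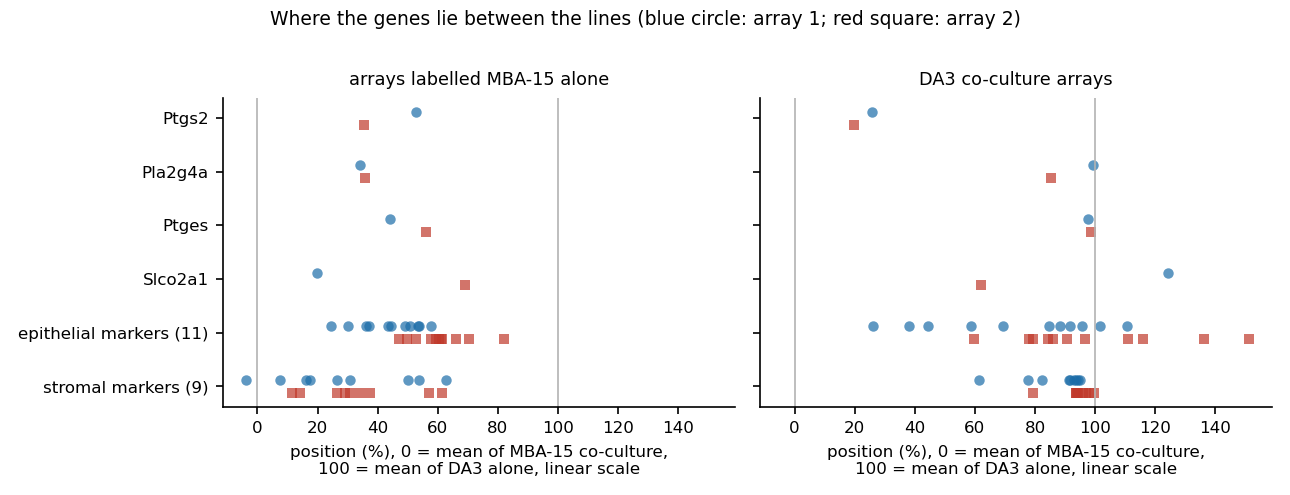
Position of 4 members and of 2 marker lists on a linear scale (x axis, percent) with 0 at the mean of MBA-15 co-culture and 100 at the mean of DA3 alone, for the arrays with the label MBA-15 alone and for the DA3 co-culture arrays, with 1 symbol per gene and array. On the DA3 co-culture arrays Ptgs2 stands at 25.8 and 19.7 while Ptges stands at 97.5 and 98.6 and the 9 stromal markers between 61.5 and 99.7, and on the labelled arrays all 4 members stand between 19.7 and 68.9.

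Whether co-culture acted differently in the 2 lines was tested as a difference of the differences, MBA-15 minus DA3. This contrast uses the arrays labelled MBA-15 alone, and the 11 epithelial markers moved in it with a median of -3.18, 11 at an unadjusted p under 0.05 in limma and 3 called lower. Their part in the values that follow was not tested. The difference was -1.35 ± 0.50 for Ptgs2 (limma unadjusted p = 0.0331, adjusted p = 0.72) and 0.65 ± 0.23 for Ptger4 (0.0254 and 0.667). For Ptges it was 0.62 ± 0.28, for Pla2g4a 0.14 ± 0.43 and for Slco2a1 -1.06 ± 0.71. Ptges was dim in both DA3 groups and Ptger4 in DA3 co-culture, which limits their values here. In limma 0 of 9 members were called, where 0.0602% of all genes were (0% higher and 0.0602% lower). Of the 9, Ptgs2 and Ptger4 had an unadjusted p under 0.05, as did 6.32% of all genes.

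The dim members gave levels only. Ptgis, the prostacyclin synthase gene, lay between 3.75 and 4.08 on the 8 arrays, and Hpgd, the gene of the dehydrogenase that inactivates prostaglandins, between 3.96 and 4.22. Ptger1, the gene of the EP1 receptor that signals through calcium, lay between 3.62 and 4.07. Ptger2, the gene of the EP2 receptor, which like EP4 raises cAMP, was at 3.90 and 4.20 in MBA-15 co-culture, 3.80 and 3.86 under the label MBA-15 alone, 3.41 and 3.42 in DA3 alone, and 3.58 and 3.91 in the DA3 fraction of the co-culture. Dim values have no order, and a transcript below the reach of the probe set is not shown to be absent.

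The rest of the pathway was followed through 8 lists of 83 genes, of which 78 were measured and 43 exceeded the dim reference on at least 2 arrays. Between the co-culture fractions 13 of the 78 were called lower and 4 higher in DA3, where 8.28% and 4.48% of all genes were, and these shares stand behind each list count below. Between the arrays labelled alone 7 were called lower and 0 higher, where 2.7% and 0.186% of all genes were. For DA3 co-culture against alone and for MBA-15 co-culture against labelled alone 0 of 78 were called in limma, where 0.0401% and 0.848% of all genes were. An unadjusted p under 0.05 was found for 11 and 8 of the 78, shares near the 14.9% and 9.8% of all genes. The median difference over the 78 genes was 0.01 between the co-culture fractions, against 0.065 over all genes.

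Among the other phospholipases A2, 1 of 16 was called lower between the co-culture fractions, where 8.28% of all genes were. It was Plaat3, a phospholipase gene of adipose tissue, at -0.96 ± 0.18 (limma adjusted p = 0.017), at least 1.3-fold since it was dim in DA3. Pla2g7, the gene of a secreted hydrolase of platelet-activating factor, had the largest value, -1.26 ± 0.42, and did not pass (limma adjusted p = 0.107). Of the 16, 5 exceeded the dim reference on at least 2 arrays. In the culture comparisons 0 of 16 passed, and 1 in each had an unadjusted p under 0.05 in limma. Over all genes that share was 9.8% in MBA-15 and 14.9% in DA3.

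Among the other synthases and carbonyl reductases, 2 of 10 were called lower in the DA3 fraction, against 8.28% of all genes. Cbr3, a carbonyl reductase gene, was at 7.23 and 7.66 in MBA-15 co-culture and at 5.19 and 5.49 in DA3 co-culture, a difference of -2.11 ± 0.23 (limma adjusted p = 0.00246). Cbr2, another reductase gene of the short-chain family, was at 8.07 and 6.87 in MBA-15 co-culture against 4.85 and 5.97 in DA3 co-culture (-2.06 ± 0.52, limma adjusted p = 0.0481). In DA3 alone it was at 7.52 and 8.37, and between the arrays labelled alone the difference was -0.30 ± 0.52. The difference of the co-culture differences for Cbr2 was 1.76 ± 0.73 (limma adjusted p = 0.79). The difference between DA3 co-culture and alone was -2.54 ± 0.52 and did not pass (limma adjusted p = 0.168). The other prostaglandin E synthase genes, Ptges2 and Ptges3, were above the dim reference on all arrays and differed by 0.55 ± 0.37 and 0.17 ± 0.34 between the fractions. Ptges3 has 3 probe sets, and the brightest is given.

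Among the 6 other prostanoid receptors, Ptgfr, the gene of the prostaglandin F2 alpha receptor, was the 1 above the dim reference. It was at 5.56 and 6.80 in MBA-15 co-culture, 5.05 and 5.96 on the labelled arrays, 3.50 and 3.59 in DA3 alone, and 3.69 and 3.59 in the DA3 fraction of the co-culture. The difference between the co-culture fractions was -2.54 ± 0.44 (limma adjusted p = 0.0133), at least 2.965-fold. In the culture comparisons 0 of 6 passed, and 0 had an unadjusted p under 0.05 in limma.

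Of 8 other breakdown and transport genes, 3 were called lower in the DA3 fraction and 0 higher, against 8.28% and 4.48% of all genes. Ptgr1, the gene of a reductase that acts after Hpgd in prostaglandin breakdown, was at 7.91 and 7.93 in MBA-15 co-culture, 7.81 and 7.15 on the labelled arrays, 4.54 and 4.77 in DA3 alone, and 5.43 and 5.82 in the DA3 fraction of the co-culture. Its difference between the co-culture fractions was -2.30 ± 0.24 (limma adjusted p = 0.00242). In DA3 co-culture against alone it was 0.97 ± 0.25 (limma adjusted p = 0.209). On the linear scale Ptgr1 stood at 8.3% and 14.4% of the way to MBA-15 co-culture on the 2 DA3 co-culture arrays. The stromal markers had medians of 8.5% and 5.6% on the same arrays. The part of stromal RNA in the Ptgr1 value was not tested. The organic anion transporter genes Slco4a1 (-1.66 ± 0.36) and Slco3a1 (-1.22 ± 0.19) were the other 2. Slco4a1 was dim on both DA3 co-culture arrays, so its level in MBA-15 co-culture was at least 1.69-fold higher, and Slco3a1 was dim on 1 of them. Abcc4, the gene of a pump that exports prostaglandins, differed by -0.81 ± 0.37 and did not pass (limma adjusted p = 0.214). In the culture comparisons 0 of the 8 passed, and 3 in each had an unadjusted p under 0.05 in limma. Over all genes that share was 9.8% in MBA-15 and 14.9% in DA3.

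Genes known to answer to prostaglandin E2, or linked to the induction of Ptgs2 as ligands, receptors or an antagonist, gave calls in both directions. Over all genes, 8.28% were called lower and 4.48% higher in the DA3 fraction. Of 11 cAMP response genes, the phosphodiesterase genes Pde3b (-3.24 ± 0.27, at least 6.35-fold) and Pde4d (-0.98 ± 0.15) were lower in the DA3 fraction. Pde4d has 3 probe sets, and the next brightest gave levels of 6.71 and 6.20 in MBA-15 co-culture against 4.63 and 4.43 in DA3 co-culture, a wider gap than the 5.97 and 6.00 against 4.86 and 5.15 of the one tested. Of 7 bone mediators, Il6 (-2.95 ± 0.21, at least 3.87-fold) and Csf1 (-2.27 ± 0.36), genes of cytokines that favour osteoclast formation, were lower, and Il11 (1.06 ± 0.26) was higher. Of 8 cytokines and receptors, the EGF receptor ligand genes Tgfa (2.13 ± 0.43, at least 4.24-fold) and Hbegf (2.25 ± 0.30) were higher, and Il1rn, the interleukin 1 receptor antagonist gene (-1.58 ± 0.20), and Egfr (-0.96 ± 0.24) were lower. The limma adjusted p of these 9 genes ran from 0.000659 for Il6 to 0.0485 for Egfr. Among them, Il11 was dim on 1 of the 2 MBA-15 co-culture arrays and Il1rn on 1 of the 2 DA3 co-culture arrays. The interleukin 1 and tumour necrosis factor genes Il1b and Tnf were dim on all arrays. Il1a, the other interleukin 1 gene, exceeded the dim reference on DA3 co-culture array 2 alone, and its difference between DA3 co-culture and alone was 0.53 (limma unadjusted p = 0.0541, not called).

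Hbegf had the largest value of these lists in DA3 co-culture after Cbr2, beside that of Ptgs2. Its level was 7.90 and 7.62 in DA3 alone, and 9.96 and 9.08 in the DA3 fraction of the co-culture, a difference of 1.76 ± 0.30 that did not pass (limma adjusted p = 0.134). In MBA-15 it was at 7.40 and 7.14 in co-culture and at 7.52 and 7.19 on the labelled arrays. Dusp1, a phosphatase gene that answers quickly to stimuli, was at 7.71 and 6.90 in DA3 alone and at 8.37 and 8.96 in DA3 co-culture (1.36 ± 0.42, limma adjusted p = 0.257), and Sik1, a kinase gene induced by cAMP, at 7.71 and 7.45 against 6.47 and 5.86 (-1.41 ± 0.45, 0.261). The cAMP response list thus held values of both signs, with a median of 0.092 over 11 genes against 0.044 over all genes.

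**Figure D4:**
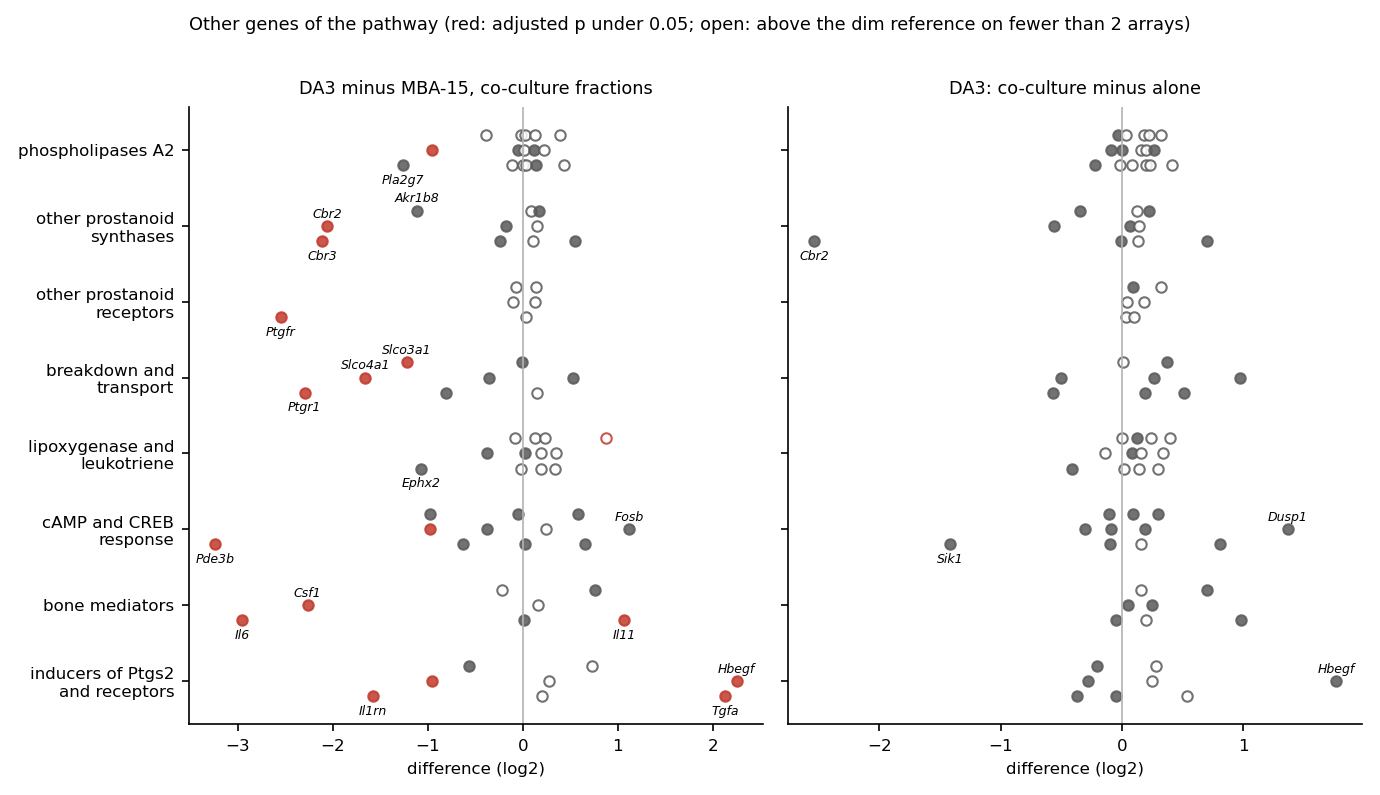
Difference in log2 level (x axis) of the 78 measured genes of 8 wider lists (y axis), between the co-culture fractions and for DA3 co-culture against alone, in red for a limma adjusted p under 0.05 and open for genes above the dim reference on fewer than 2 arrays. Red points lie mostly on the side of MBA-15, from -3.24 for Pde3b to 2.25 for Hbegf, and none is red for DA3 co-culture against alone, where Cbr2 (-2.54) and Hbegf (1.76) lie furthest out.

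The genes with the most similar pattern were sought for the 4 members whose group means spanned over 2 log2 units, among 3380 genes. Pearson's r over the 8 arrays is given as a description, since the arrays share 2 lines and the same groups. For Ptgs2 they were H2-Q2 (0.909), the thiamine transporter gene Slc19a2 (0.908) and Tmsb4x (0.897), the gene of the actin-binding peptide thymosin beta 4. Tmsb4x had means of 9.61 in MBA-15 co-culture, 8.89 on the labelled arrays, 8.27 in DA3 alone and 9.59 in DA3 co-culture. For Ptges they were the angiopoietin gene Angpt1 (0.998), the kinase gene Lrrk2 (0.998) and Gask1b (0.997), with DA3 alone means of 3.78, 4.02 and 4.02. For Pla2g4a they were the growth factor gene Pdgfd (0.997), the nucleoside transporter gene Slc29a1 (0.992) and the phosphodiesterase gene Pde1a (0.988), and for Slco2a1 Crybg1 (0.979), Dtnb (0.971) and the semaphorin gene Sema3e (0.969).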

How the data were processed

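The authors deposited log2 values for each probe set and array. RMA and Partek 6.5 are named in the submitters' processing notes without parameters, and the log2 scale was read from the range of the values. Any pair of the 8 arrays had at most 2 values in common, so none was taken as a repeat. Of 35556 probe sets 21789 had 1 gene symbol, 1621 had several and 12146 are unnamed here, which left 19938 genes. Limma 3.58.1 in R 4.3.3 was fitted to the 4 group means of all 8 arrays (4 residual and 2.6 prior degrees of freedom), and two-sided p-values were adjusted after Benjamini and Hochberg over all genes at 0.05. The fit was tested on simulated data, but no outcome of that is given here. Symbols of 2 listed genes were matched through RefSeq synonyms. All 9 measured members are named, with genes of the wider lists that passed or had the largest value of their list, Epcam, and a few others chosen after their values were seen (Ptges2, Ptges3, Abcc4, Dusp1, Il1a, Il1b, Tnf, Alox5). The members and lists were chosen with earlier results of these data known. Array medians lay between 4.479 and 4.642. The number of arrays limits the precision. Other settings tried were blocks on the replicate and assay number, single assays, fits of only the groups compared, 2 normalizations, a filter on dim genes, the mean of probe sets, a variance trend and leaving out each array.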

Additional observations from a re-analysis of the deposited data

How the results depend on the processing

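Between the co-culture fractions 3 members were called, and 1 with only these groups in the fit; 4 were called with quantile normalization, equal medians, the filter on dim genes or a variance trend, the added one being Slco2a1, higher in DA3. Leaving out 1 array could change which members were called. Without MBA-15 co-culture array 2 Ptger4 (-0.75) was lost and Slco2a1 (2.57) was gained, and without DA3 co-culture array 2 Ptger4 (-0.89) was lost. Between the arrays labelled alone 2 were called, 1 with the assay number as a block, 1 with array medians set equal, 3 with the filter on dim genes or the variance trend, which added Ptgs2, and 1 or 2 when an array was left out. For DA3 co-culture against alone 0 were called, and 1, Ptgs2, with a variance trend. In the other 2 comparisons 0 were called under every alternative run. Ptges kept its direction and its call between the lines in all 17 and 16 other fits. With the replicate number as a block the counts of called members were 3, 2, 0, 0 and 0, as without it. The numbers are not known to pair the arrays: the replicate deviations of 2 groups correlated between -0.413 and 0.311 over genes. Values near 0 turned sign: Pla2g4a in DA3 co-culture to -0.072 with the assay block, Slco2a1 there to 0.08 after quantile normalization and between -0.494 and 0.246 without 1 array, and the difference of the differences of Pla2g4a to -0.094 after quantile normalization and between -0.282 and 0.566 without 1 array; the cause was not tested. Setting array medians equal moved all genes by 0.106 for MBA-15 co-culture against labelled alone, 0.149 for the difference of the differences and 0.159 between the arrays labelled alone. Leaving out the arrays labelled MBA-15 alone, chosen after seeing the data, left the 3 calls between the co-culture fractions and the 0 calls for DA3. Over all genes the calls ran from 13 to 326 (169 as reported) for MBA-15 co-culture against labelled alone, 0 to 120 (8) for DA3, 0 to 36 (12) for the difference of the differences, 1123 to 2908 (2545) between the co-culture fractions and 136 to 791 (576) between the arrays labelled alone. Within assays there is no test. Dim signal limits Ptgis, Hpgd, Ptger1, Ptger2 and the DA3 side of Ptges and Ptger4.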

Other observations

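The other branch of arachidonic acid use, the lipoxygenases and leukotriene genes, was mostly dim: of 12 measured genes 3 exceeded the dim reference on at least 2 arrays. Lta4h, the gene of the hydrolase that makes leukotriene B4, was at 6.59 and 5.97 in MBA-15 co-culture, 6.77 and 6.62 under the label MBA-15 alone, 6.24 and 6.39 in DA3 alone, and 5.82 and 5.99 in the DA3 fraction of the co-culture. Ephx2, the gene of the soluble epoxide hydrolase, was at 5.06 and 4.69 in MBA-15 co-culture and dim on the 4 DA3 arrays, and the difference between the co-culture fractions did not pass (-1.07 ± 0.34, limma adjusted p = 0.0938). Aloxe3, an epidermal lipoxygenase gene, was called higher in the DA3 fraction (0.87 ± 0.16, limma adjusted p = 0.0147), but was dim on all 8 arrays, at 4.50 and 4.21 in DA3 co-culture and 3.53 and 3.43 in MBA-15 co-culture. The gene of the 5-lipoxygenase, Alox5, was dim on every array, between 3.73 and 4.18.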
